A study of Mus musculus with 9 samples.

Results

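The miR-503 and miR-322 cluster is a run of microRNA (miRNA) genes on the mouse X chromosome. Its 10 members were taken by name from a table of 946 mature miRNAs counted in 9 liver libraries, and all 10 were found. The cluster was chosen by its member miR-503-5p, which was selected on its read counts after acetaminophen against saline, where it was 1 of the few miRNAs called. The other members were taken for lying in the same cluster. That contrast is therefore described here with no test, and only contrasts that bring in the third group are tested. The mice were wild-type C57 BL6, 8 weeks old, and each of 3 groups held 3 libraries. Control mice were given saline. APAP mice were given 500 mg/kg acetaminophen (APAP), which injures the liver at high dose, by injection into the peritoneum. The dmPGE2+APAP mice had the same APAP dose and, 1 h earlier, 300 µg/kg of dmPGE2, a methylated analog of prostaglandin E2, by the same route. Tissue was taken 6 h after APAP. No group had dmPGE2 alone, and the labels give no vehicle for it. Nothing in them ties each library to its own animal, so the p-values rest on the spread between libraries, part of which may be technical.

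A miRNA gene is transcribed as part of a long RNA, from which the nuclease Drosha cuts a hairpin and Dicer then cuts a short duplex. One strand of the duplex is usually kept by an Argonaute protein and the other is mostly lost, and the strands are named 5p and 3p after the arm of the hairpin they come from. Bases 2 to 8 of the kept strand, the seed, pair with target messenger RNAs. Genes of a cluster can share 1 primary transcript, while each mature strand has its own processing and lifetime. The miR-322 and miR-503 pair is known for holding back the cell cycle through cyclins D and E and Cdc25 phosphatases, and for its induction when muscle precursors differentiate.

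The cluster holds 7 hairpins in 6353 bases, all on the minus strand (RefSeq, GRCm38.p6, the assembly behind mm10). In the direction of transcription Mir322 comes first, at chrX:53054255-53054349. Mir503 follows after a gap of 200 bases, at chrX:53053984-53054054, and Mir351 after another 630 bases, at chrX:53053255-53053353. These 3 hairpins lie inside the annotated long noncoding RNA gene C430049B03Rik (chrX:53053112-53057190). Mir542 lies 3767 bases further on, at chrX:53049403-53049487. The 3 hairpins of miR-450 close the run, at chrX:53048299-53048367, chrX:53048154-53048244 and chrX:53047997-53048078. The nearest protein-coding gene on that side, Hprt, a purine salvage enzyme, ends 26336 bases beyond the last hairpin.

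The hairpin of miR-503 is shown because its strands are compared with each other within each library. Capitals mark the 5p strand (bases 6 to 28 of the hairpin) and the 3p strand (bases 47 to 68).
Mir503 hairpin: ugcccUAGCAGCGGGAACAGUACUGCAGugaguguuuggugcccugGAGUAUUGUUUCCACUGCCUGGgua

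The mature members with the most reads follow, with bases 2 to 8 in capitals. miR-16-5p and miR-125b-5p are no members and stand beside the members whose seeds they share.
mmu-miR-503-5p: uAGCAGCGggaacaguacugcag
mmu-miR-322-5p: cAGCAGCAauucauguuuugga
mmu-miR-16-5p: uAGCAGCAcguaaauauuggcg
mmu-miR-503-3p: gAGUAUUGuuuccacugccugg
mmu-miR-322-3p: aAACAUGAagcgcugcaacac
mmu-miR-351-5p: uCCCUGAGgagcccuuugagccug
mmu-miR-125b-5p: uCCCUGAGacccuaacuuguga
mmu-miR-542-3p: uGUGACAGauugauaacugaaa
mmu-miR-450a-5p: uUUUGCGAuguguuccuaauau
mmu-miR-450b-5p: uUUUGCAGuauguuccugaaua

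miR-503-5p and miR-322-5p share bases 2 to 7 with each other and with the miR-15 and miR-16 family. Counted from 1 at the 5′ end, miR-503-5p differs from miR-16-5p within the first 8 bases only by G8A, and from miR-322-5p by U1C and G8A. Past the seed they diverge. Over 22 bases from base 1, the seed included, 12 match miR-16-5p by position and 11 match miR-322-5p. miR-351-5p has the same first 8 bases as miR-125b-5p and then differs, with 10 of 22 bases matching by position, the first 8 included. miR-450a-5p, made by 2 of the hairpins with 1 mature sequence, differs from miR-450b-5p within the first 8 bases by G7A and A8G. Besides these 10 members, 3 further strands of the miR-450 hairpins have rows, and they are left out of the counts of members.

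Total reads per library ran from 1038799 (dmPGE2+APAP replicate 2) to 10483460 (a Control library), and Control libraries were the deepest group on average. Levels are in CPM: reads divided by a library total that TMM factors adjust, on the premise that most miRNAs do not change. The liver marker miR-122-5p stood at 227000 ± 84100 CPM in Control (SD, n = 3), 179000 ± 19400 with APAP alone and 191000 ± 18300 in dmPGE2+APAP. A count of 0 allows a level of up to 3 reads, which is 0.276 to 2.56 CPM over the 9 libraries. Such limits, and the intervals named below as counting or binomial intervals, cover counting error only, since PCR copies are not independent molecules. The 95% intervals of log2 differences come from the edgeR fit and include the spread between libraries.

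The cluster was sparse in these livers. Of the reads of a library, all 10 rows together held 797 to 2035, or 291 in the shallowest library. Of the members' reads, miR-322-3p held 40.6%, miR-450a-5p 29.7%, miR-542-3p 9.76%, miR-322-5p 9.33%, miR-351-5p 5.42% and miR-503-5p 2.16%. By mean level, miR-322-3p ranked 96 and miR-503-5p 260 among the 360 miRNAs that passed the filter on low counts. Of the 10 members, 8 passed this filter. The others, miR-351-3p with 12 reads and miR-542-5p with 23 reads in all libraries, are the scarce strands of their hairpins.

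miR-503-5p, the member chosen on its APAP and Control reads, held 12, 14 and 15 reads in the Control libraries, 41, 39 and 35 with APAP alone, and 30, 8 and 31 in dmPGE2+APAP. Scaled to depth these are 1.76, 1.90 and 1.38 CPM in Control, 5.90, 5.34 and 8.37 CPM with APAP alone, and 4.24, 6.82 and 6.34 CPM in dmPGE2+APAP. Every library that had APAP, with or without dmPGE2, lay above every Control library, while the libraries of the APAP-treated groups overlapped each other. The shallowest library carries the widest error, with a counting interval of 2.94 to 13.4 CPM for its 8 reads.

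Between APAP and Control, the contrast that brought up this miRNA, the mean level was 6.54 ± 1.61 CPM against 1.68 ± 0.269 CPM (SD, n = 3), a log2 difference of 1.94 (SE 0.36). Summed over the libraries and scaled to depth, the reads differed 3.81-fold, a value that the choice of this miRNA on these reads can inflate. In this contrast edgeR's quasi-likelihood test called 0.833% of all 360 miRNAs at an adjusted p under 0.05, and the libraries of the groups did not overlap for 16.7%. Of the 8 members that passed the filter, 1 was called and 1 did not overlap, miR-503-5p in both cases. Since the rule used this contrast, nothing is read from these counts.

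The dmPGE2+APAP libraries, which played no part in the choice, had a mean of 5.80 ± 1.37 CPM. Against Control the log2 difference was 1.73 (SE 0.38, 95% interval 0.93 to 2.53), and all 3 libraries lay above all 3 of Control. In edgeR's quasi-likelihood test the p, adjusted over 360 miRNAs after Benjamini and Hochberg, was 0.0595, so miR-503-5p did not pass, although it had the next lowest p after the 1 miRNA called. The Control libraries are the same ones that entered the choice. The background is 0.278% called and 14.7% not overlapping, and of the 8 members 0 were called and 1 did not overlap. By other routes the adjusted p lay on both sides of the threshold, from 0.00962 with DESeq2 to 0.156 with limma-voom and 0.321 without dmPGE2+APAP replicate 3, and the log2 difference stayed between 1.50 and 1.97.

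With dmPGE2 before APAP, miR-503-5p was at a level close to that with APAP alone, with a log2 difference of -0.22 (SE 0.35) and an edgeR adjusted p of 0.923. The 95% interval runs from -0.96 to 0.53, so these libraries allow a difference in either direction. Without APAP replicate 3 or dmPGE2+APAP replicate 1 the value became 0.03 and 0.02. The APAP libraries in this contrast are again ones that entered the choice. In this contrast 0.278% of all miRNAs were called and 13.9% did not overlap, against 0 and 0 of the 8 members.

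**Figure D1:**
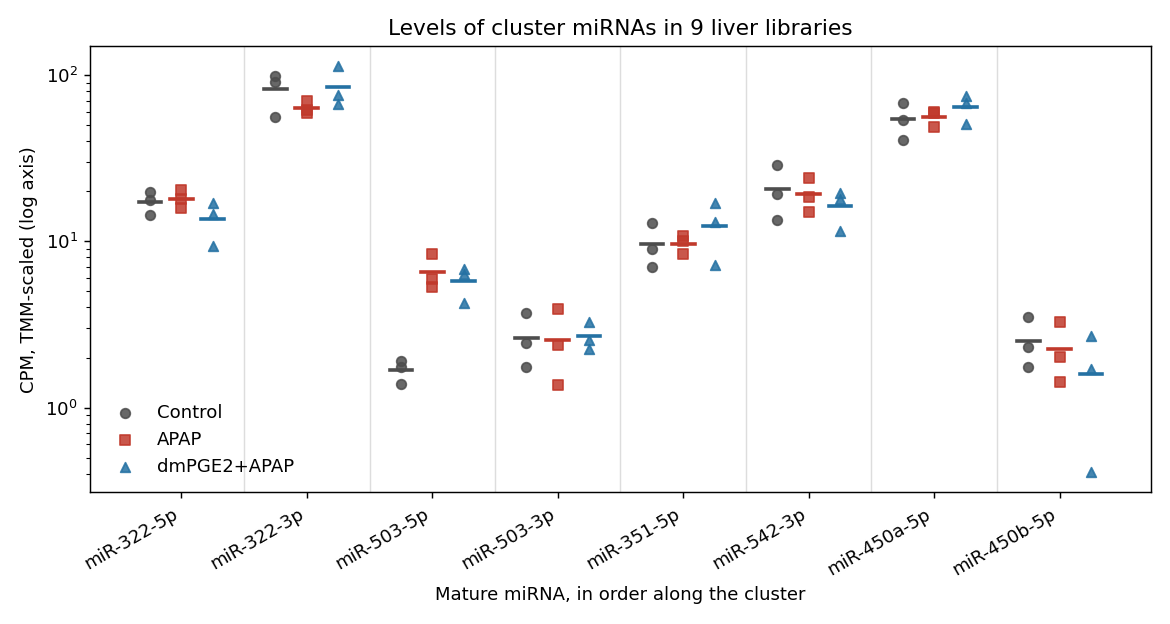
Level of the 8 members that passed the filter in each of the 9 libraries, in TMM-scaled CPM on a log axis, ordered along the cluster. Each point is a library and each bar a group mean. miR-503-5p is at 1.38 to 1.90 in Control and 4.24 to 8.37 in the other libraries, while for every other member the groups overlap. miR-503-5p was chosen on its Control and APAP reads, so its split is partly built in.

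The strand on the other arm of the same hairpin, miR-503-3p, held 12, 18 and 40 reads in Control, 27, 10 and 10 with APAP alone, and 16, 3 and 16 in dmPGE2+APAP. Group means were 2.63 ± 0.975, 2.55 ± 1.27 and 2.70 ± 0.519 CPM (SD, n = 3), and the groups overlapped throughout. Against Control its log2 difference was -0.07 (SE 0.45) in APAP and 0.01 (SE 0.48) in dmPGE2+APAP, with an edgeR adjusted p of 0.994 for the latter. Its reads are few, and the 95% interval of the latter runs from -1.01 to 1.04.

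The split between both strands of a hairpin is measured within a library and needs no scaling between libraries. Reads of miR-503-5p made up 50.0%, 43.8% and 27.3% of the reads of both strands in Control, 60.3%, 79.6% and 77.8% with APAP alone, and 65.2%, 72.7% and 66.0% in dmPGE2+APAP. The 5p strand was thus the minor or equal strand in all 3 Control libraries and the major strand in all 6 others. Reads of the 5p strand in Control and APAP entered the choice of miR-503-5p, and those of the 3p strand did not. This switch is therefore partly built in, and the contrasts of the ratio below share libraries with the choice. Exact binomial 95% intervals are wide, for example 29.1% to 70.9% in Control library 1 and 47.7% to 72.0% in APAP replicate 1. On the log2 scale (0.5 reads added to each side) the ratio of 5p to 3p was -0.58 ± 0.72 in Control, 1.42 ± 0.72 with APAP alone and 1.03 ± 0.22 in dmPGE2+APAP (SD, n = 3). The difference between dmPGE2+APAP and Control was 1.61 with no overlap (exact two-sided permutation p = 0.1, which is as low as 3 libraries against 3 can reach). Against APAP the difference was -0.39 (exact permutation p = 0.4). This ratio was chosen for display after its values were seen. Of 9 within-library ratios, tested in 2 contrasts each, none could pass: 18 tests were made, and the adjusted p of the first difference was 0.45.

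miR-322-5p made up 17.8% ± 2.65 of the reads of its hairpin in Control, 22.2% ± 3.56 with APAP alone and 14.7% ± 6.45 in dmPGE2+APAP (SD, n = 3). The 3p strand was thus the major one in all 9 libraries, and the lowest 5p share, 7.64%, was that of the shallow dmPGE2+APAP replicate 2 with 11 reads of miR-322-5p. The log2 ratio of miR-322-5p to miR-322-3p differed by -0.41 between dmPGE2+APAP and Control (exact permutation p = 0.6) and by -0.81 between dmPGE2+APAP and APAP (exact permutation p = 0.2), with overlap in both. miR-542-3p held 93.8% or more and miR-351-5p 90.9% or more of the reads of their hairpins in every library. Their scarce strands held few reads, and the log2 ratios of the major to the scarce strand differed by -0.92 for miR-542 (exact permutation p = 0.6) and by -1.16 for miR-351 (exact permutation p = 0.4) between dmPGE2+APAP and Control. Between dmPGE2+APAP and APAP they differed by -0.54 (exact permutation p = 0.8) and -1.04 (exact permutation p = 0.4), with overlap in both contrasts. The hairpins were not tested against each other.

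miR-503-5p was also set against the summed reads of the other 9 members in the same library. Its share of all 10 rows was 0.793%, 1.16% and 0.737% in Control, 3.62%, 2.96% and 4.39% with APAP alone, and 2.50%, 2.75% and 3.29% in dmPGE2+APAP. No Control library reached the share of any APAP-treated library. Reads of miR-503-5p in Control and APAP entered its choice, and those of the neighbours did not. This gap is therefore partly built in, and the contrasts of the ratio below share libraries with the choice. The log2 ratio of miR-503-5p to its neighbours averaged -6.76 ± 0.36, -4.72 ± 0.30 and -5.06 ± 0.20 in these groups (SD, n = 3). Between APAP and Control it differed by 2.04, as a description. Between dmPGE2+APAP and Control it differed by 1.70, or 3.26-fold, with an exact two-sided permutation p of 0.1, the smallest possible here, and an adjusted p of 0.45 over the 18 ratio tests. Against miR-322-5p alone, the neighbour with the same bases 2 to 7, the difference was 2.11 (exact permutation p = 0.1), and against the neighbours without miR-322-5p it was 1.68. The log2 ratio to miR-322-5p was -1.99, -0.44 and -1.18 in the dmPGE2+APAP libraries. The highest of these is that of the shallowest library, with 8 reads against 11. Between dmPGE2+APAP and APAP the ratio to the neighbours differed by -0.34 (exact permutation p = 0.2), a sign that turned to 0.27 with miR-322-5p alone as the denominator.

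**Figure D2:**
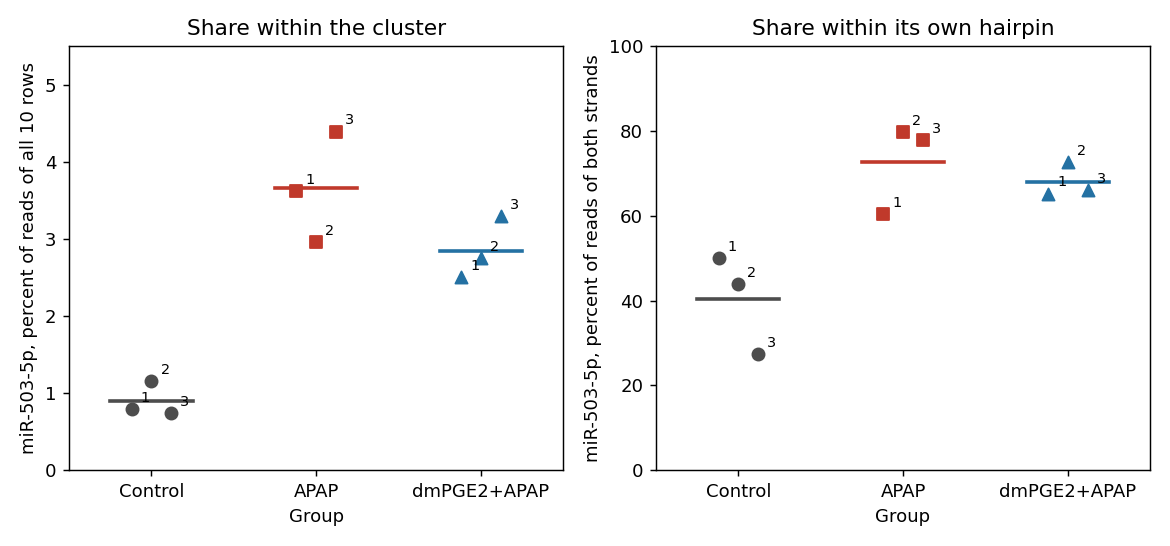
Reads of miR-503-5p in each library as a percent of the reads of all 10 members (left) and of both strands of its own hairpin (right). Each point is a library with its replicate number, and bars are group means. Control libraries lie at 0.737% to 1.16% on the left and at 27.3% to 50.0% on the right, below all 6 APAP-treated libraries in both panels. The Control and APAP reads of miR-503-5p entered its choice, so this split is partly built in.

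The neighbours themselves had overlapping levels in the 3 groups, and none passed in a tested contrast. Of the 7 neighbours that passed the filter, 3 had values above 0 in APAP against Control, with a median log2 of -0.07 and a range of -0.38 to 0.06. The median of all 360 miRNAs there was -0.05, and 44.7% of them lay above 0. For dmPGE2+APAP against Control, 4 of 7 lay above 0, with a median of 0.01 and a range of -0.58 to 0.30, beside a median of -0.03 and 46.1% above 0 for all miRNAs. For dmPGE2+APAP against APAP, 4 of 7 lay above 0, with a median of 0.08, beside a median of 0.00 and 50.0% for all. The lowest edgeR adjusted p of any neighbour was 0.675 and 0.896 in the contrasts of dmPGE2+APAP with Control and with APAP.

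miR-322-5p, which shares bases 2 to 7 with miR-503-5p and lies beside it, held 19.8, 14.4 and 17.6 CPM in Control, 20.3, 17.9 and 15.8 with APAP alone, and 17.1, 9.37 and 14.5 in dmPGE2+APAP. The groups overlapped, and the lowest value is that of the shallowest library. Its log2 difference was 0.06 (SE 0.27) in APAP and -0.28 (SE 0.28) in dmPGE2+APAP against Control, the latter with an edgeR adjusted p of 0.675 and a 95% interval of -0.86 to 0.31. That interval lies wholly below the interval of miR-503-5p in the same contrast. The Control libraries entered the choice of miR-503-5p but not of miR-322-5p, so nothing is read from this gap.

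miR-322-3p, the most abundant member, held 91.3, 56.1 and 99.1 CPM in Control, 58.9, 61.4 and 69.6 with APAP alone, and 67.3, 113 and 75.4 in dmPGE2+APAP. Control spread almost as widely as all libraries together. The log2 difference was -0.38 (SE 0.25) in APAP against Control, 0.41 (SE 0.26) in dmPGE2+APAP against APAP and 0.03 (SE 0.26) in dmPGE2+APAP against Control, with an edgeR adjusted p of 0.896 and 0.969 for the latter contrasts.

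miR-351-5p, whose seed is that of the miR-125 family, averaged 9.63 ± 2.99 CPM in Control, 9.69 ± 1.21 with APAP alone and 12.4 ± 4.97 in dmPGE2+APAP (SD, n = 3). Its log2 difference was 0.01 (SE 0.34) in APAP and 0.30 (SE 0.35) in dmPGE2+APAP against Control. The miR-125 strands with this seed were far more abundant, miR-125b-5p at 326 ± 79.7 and miR-125a-5p at 79.3 ± 26.0 CPM in Control. Their values in dmPGE2+APAP against Control stood at log2 0.28 (SE 0.21) and 0.47 (SE 0.27), and neither passed (lowest edgeR adjusted p 0.5).

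Further along the run, miR-542-3p, known to act on the inhibitor of apoptosis survivin, held 28.9, 19.2 and 13.5 CPM in Control, 15.0, 18.6 and 23.9 with APAP alone, and 11.6, 19.6 and 18.0 in dmPGE2+APAP. Its log2 difference against Control was -0.10 (SE 0.31) in APAP and -0.36 (SE 0.33) in dmPGE2+APAP. miR-450a-5p averaged 54.1 ± 13.5 CPM in Control, 56.0 ± 6.34 with APAP alone and 64.5 ± 12.4 in dmPGE2+APAP (SD, n = 3), with log2 differences of 0.05 (SE 0.24) and 0.24 (SE 0.24) against Control. These strands, with hairpins far from Mir503 in the run, overlapped between all groups.

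miR-450b-5p, at 24, 17 and 19 reads in Control, 14, 24 and 6 with APAP alone and 19, 2 and 2 in dmPGE2+APAP, had too few reads for a narrow estimate. Its log2 difference in dmPGE2+APAP against Control was -0.58, with a 95% interval of -1.81 to 0.66, and became 0.02 without dmPGE2+APAP replicate 3 and -1.77 without dmPGE2+APAP replicate 1. miR-351-3p had 3, 3 and 6 reads and miR-542-5p 9, 10 and 4 reads in all libraries of Control, APAP and dmPGE2+APAP. Each had 0 reads in at least 2 libraries, and no difference was detectable at this depth.

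**Figure D3:**
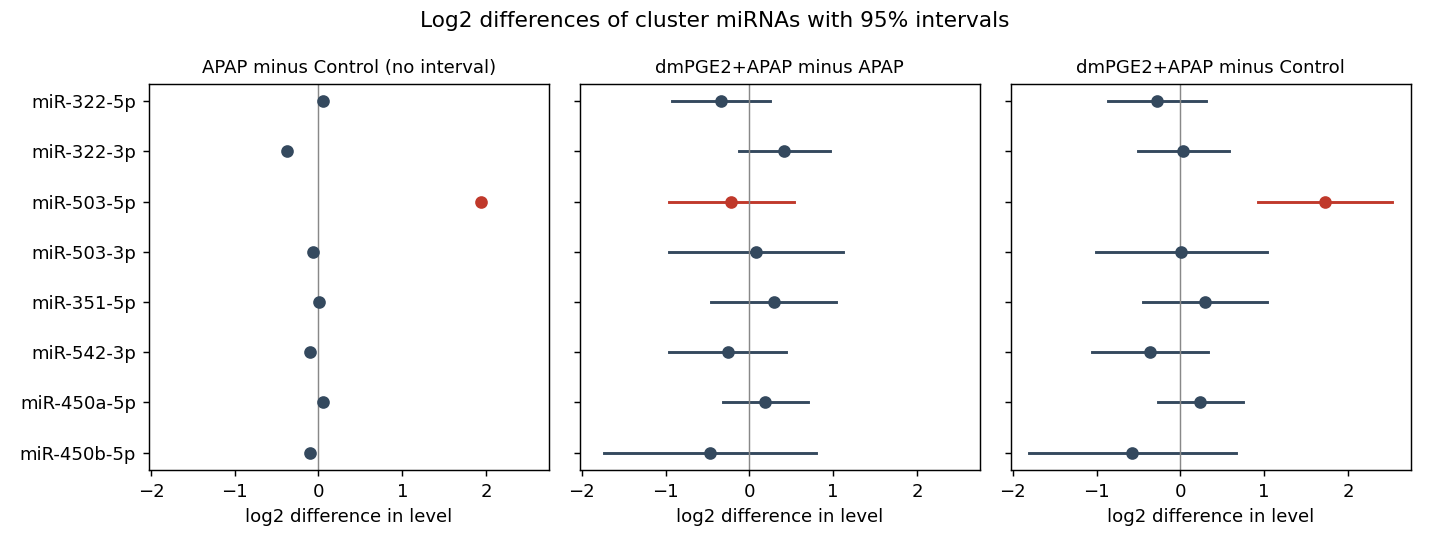
Log2 difference in level (horizontal axis) of the 8 members that passed the filter, ordered along the cluster, in the 3 contrasts. Points are edgeR estimates, and lines are 95% intervals, drawn only in the contrasts that are tested here. miR-503-5p (red) stands at 1.94 and 1.73 against Control, and the other 7 members lie between -0.58 and 0.41 in the 3 panels.

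Levels of the members over the 9 libraries were set against miR-503-5p and miR-322-3p only, and other pairs were not compared. Counting error in the scarce strands weakens such correlations. Pearson correlations of log2 CPM with miR-503-5p, given as a description over libraries that share 3 groups, were 0.44 for miR-450a-5p, 0.20 for miR-351-5p, 0.03 for miR-542-3p, 0.00 for miR-503-3p, -0.17 for miR-322-3p, -0.33 for miR-322-5p and -0.40 for miR-450b-5p. With miR-322-3p the correlations of the others ranged from -0.45 for miR-322-5p to 0.29 for miR-450a-5p.

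The miRNAs most like miR-503-5p in pattern were sought outside the cluster only, and the rows of the cluster were left out before ranking. Among 251 miRNAs with a mean of at least 5 CPM, the 5 with the highest Pearson correlation of log2 CPM over the 9 libraries were miR-6481 (0.88), miR-21a-3p (0.84), miR-330-5p (0.84), miR-652-3p (0.82) and miR-130a-3p (0.81). All 5 had higher levels in every APAP and every dmPGE2+APAP library than in any Control library. They were picked by likeness to miR-503-5p over these same libraries, so this split is largely built into the choice. miR-6481 held only 3 reads in all Control libraries together. miR-21a-3p, a strand of the miR-21 hairpin, stood at log2 -0.83 (SE 0.43) in dmPGE2+APAP against APAP, with the libraries not overlapping, and was not called (edgeR adjusted p 0.731). miR-330-5p held 5.67 ± 1.28, 10.8 ± 1.85 and 10.4 ± 2.93 CPM in Control, APAP and dmPGE2+APAP, and miR-652-3p, which is X-linked like the cluster, 17.3 ± 2.11, 36.6 ± 15.3 and 35.7 ± 5.25 CPM (SD, n = 3).

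The other miRNAs that share bases 2 to 7 with miR-503-5p, the miR-15 and miR-16 family, were next compared. All 5 in the table passed the filter. None was called in any contrast, beside 0.833% of all miRNAs in APAP against Control and 0.278% in each other contrast. In APAP against Control 3 of 5 lay above 0 with a median log2 of 0.02, beside 44.7% of all miRNAs. In dmPGE2+APAP against Control 2 of 5 lay above 0 with a median of -0.20, beside 46.1%. miR-16-5p, the most abundant of the 5, held 632 ± 160 CPM in Control, 629 ± 102 with APAP alone and 546 ± 108 in dmPGE2+APAP (SD, n = 3), with a log2 difference of -0.21 (SE 0.23) in dmPGE2+APAP against Control. On this scale miR-16-5p was present at a far higher level than miR-503-5p in every group. miR-195a-5p and miR-497a-5p stood at -0.20 (SE 0.27) and 0.19 (SE 0.25) in the same contrast.

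The strands of miR-15 are given separately. miR-15b-5p held 21.1 ± 2.91 CPM in Control, 32.1 ± 5.04 with APAP alone and 21.9 ± 1.97 in dmPGE2+APAP (SD, n = 3), and the APAP libraries lay above those of both other groups. In dmPGE2+APAP against APAP its log2 difference was -0.53 (SE 0.24), which did not pass (edgeR adjusted p 0.703). With dmPGE2, then, miR-15b-5p was near its Control level while miR-503-5p was not, and the difference between these miRNAs was not tested. miR-15a-5p, named after its values were seen, held 22.7 ± 1.67, 25.5 ± 5.40 and 17.0 ± 4.43 CPM in the 3 groups (SD, n = 3), with a log2 difference of -0.54 (SE 0.27) in dmPGE2+APAP against APAP that did not pass (edgeR adjusted p 0.703).

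**Figure D4:**
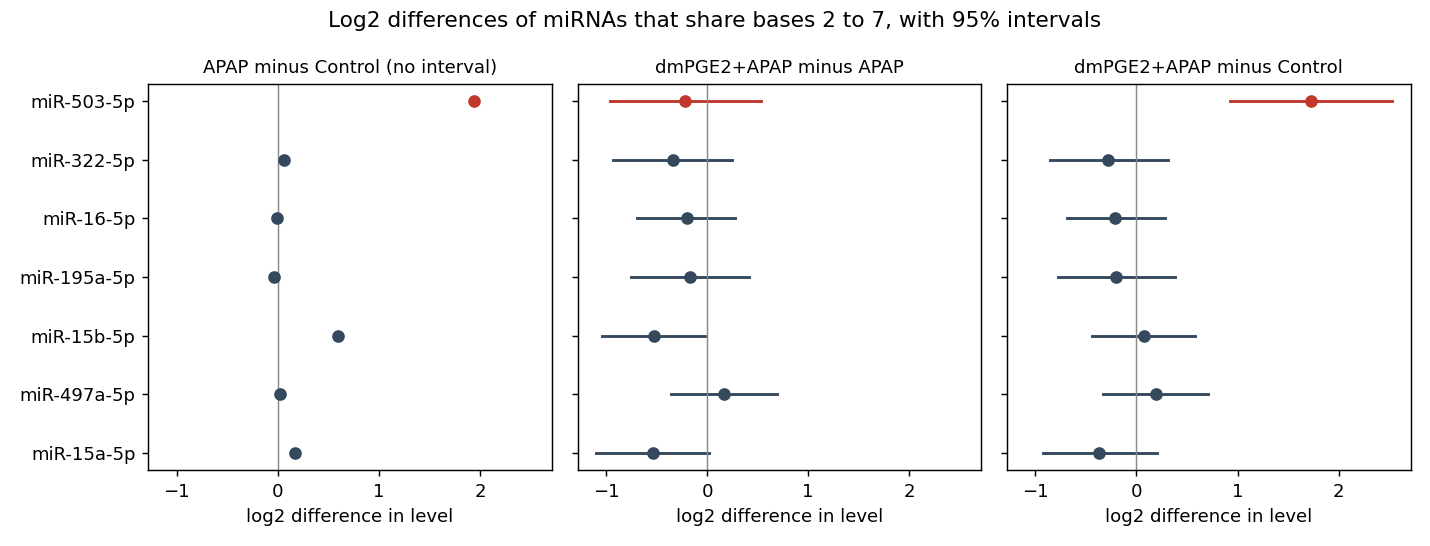
Log2 difference in level (horizontal axis) of miR-503-5p (red), miR-322-5p and the 5 other miRNAs in the table that share bases 2 to 7 with them, in the 3 contrasts. Points are edgeR estimates, and lines are 95% intervals, drawn only in the tested contrasts. In dmPGE2+APAP against Control the 5 others lie between -0.37 and 0.19, and miR-503-5p at 1.73.

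Other genes in the settings in which this cluster is known were read from fixed lists. Of 15 miRNAs known to restrain the cell cycle, 14 were in the table and passed the filter, and 0 were called in any contrast. Of all miRNAs, 0.833% were called in APAP against Control and 0.278% in each other contrast, so this count says little about the set. The median log2 difference of the 14 was 0.00 with APAP alone and -0.21 in dmPGE2+APAP against Control. In dmPGE2+APAP against APAP it was -0.16, and 1 of 14 lay above 0, beside 50.0% of all miRNAs. The most abundant of the 14, miR-26a-5p and let-7g-5p, stood at -0.29 (SE 0.19) and -0.28 (SE 0.20) in dmPGE2+APAP against Control. Of the 76 other X-linked miRNAs in the table, 24 passed the filter, with a median of -0.02 with APAP alone and -0.18 in dmPGE2+APAP against Control. Of the 24, 0 were called, which at the shares given above says little about them. The most abundant of these, let-7f-5p, miR-92a-3p, miR-221-3p and miR-98-5p, stood at -0.19, 0.00, -0.09 and 0.44 in APAP against Control. The 24 ranged from -1.04 to 1.07 in that contrast and from -0.53 to 1.03 in dmPGE2+APAP against Control, where the lowest edgeR adjusted p was 0.206. The highest value in both was that of miR-652-3p. miR-92a-3p is also made from a cluster on another chromosome, and let-7f-5p is made from the hairpins let-7f-1 and let-7f-2. Their rows cannot tell the sources apart, so neither can be read as X-linked alone.

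Markers of cell types were read from fixed lists. In bulk tissue, fewer cells of a type and less RNA per cell cannot be told apart. The summed level of 4 erythroid strands was 431 to 543 CPM in Control, 731 to 1400 with APAP alone and 352 to 379 in dmPGE2+APAP, beside mean levels of miR-503-5p of 1.68, 6.54 and 5.80 CPM in these groups. The 4 myeloid strands summed to 124 to 233, 177 to 319 and 153 to 238 CPM in these groups, overlapping throughout. The 7 muscle miRNAs summed to 483 to 2700, 315 to 905 and 342 to 722 CPM, and the 5 mesenchymal strands to 25900 to 41700, 24500 to 37100 and 25800 to 41600 CPM, with overlap. Both endothelial strands of miR-126a summed to 7440 to 9120, 7990 to 9430 and 8790 to 10200 CPM, and the 5 hepatocyte strands to 375000 to 525000, 329000 to 388000 and 353000 to 393000 CPM. The lymphoid strand miR-150-5p was at 1.91 to 24.5, 13.9 to 20.0 and 17.0 to 24.7 CPM. Of the listed markers 1 was called in a tested contrast, the erythroid miR-451a, at log2 -1.44 (SE 0.25) in dmPGE2+APAP against APAP (edgeR adjusted p 0.00993). In that contrast 0.278% of all miRNAs were called. No listed marker was at 0 in all libraries. The part of cell composition in the level of miR-503-5p was not tested. Depth also differed between the groups, and its part was not tested either.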

How the data were processed

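Small RNA of 9 mouse liver libraries was sequenced, and the authors deposited 1 table of whole-number read counts per mature miRNA, per the file headers. The submitters' processing notes name Bowtie and the build mm10. How reads were counted, with which miRNA annotation and whether by strand, is not given in the sources used here. Columns of both APAP-treated groups match the labels by name. The remaining 3 columns carry another prefix and were taken as Control, the only group left, with their own numbers. The table's TPM columns, 9 in number, were not used.

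The test was edgeR's robust quasi-likelihood test (edgeR 4.0.16 in R 4.3.3) on all 9 libraries with 3 group means, after TMM scaling and the filterByExpr filter, whose minimum count was 10 and minimum total 15. P-values were adjusted by Benjamini-Hochberg over 360 miRNAs, with a threshold of 0.05. SEs are derived from the F statistic. Alternatives used DESeq2 1.42.0, limma 3.58.1 (voom, or log2 of CPM + 1 from library totals, the latter chosen after seeing the data), other scalings and filters, fewer groups, and each library left out. Ratios within a library had 0.5 reads added to each side and were compared by exact permutation. Correlations used log2 CPM with a prior count of 2.

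On 5 simulated sets for dmPGE2+APAP against APAP (a median of 351 miRNAs tested), 97.7% of 4-fold and 63.5% of 2-fold changes were recovered. Of the calls 1.60% were false. The changes were planted in many rows at once, leaving out the rows with fewest reads. The 1 common dispersion was set by hand and not estimated from these data. In the data 0.278% of miRNAs were called in this contrast, so the adjustment is stricter there and recovery may be lower. Sequences and coordinates are from RefSeq (GRCm38.p6), where 795 of the 946 rows matched by name. The members, lists and ratios were chosen with earlier results of these data known. All members are named, with up to 4 abundant miRNAs per shared seed, 4 on the same chromosome, 5 most alike in pattern, and 2 per list where a list is described in detail. miR-15a-5p, the remaining miRNA that shares bases 2 to 7, was named after its values were seen.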

Additional observations from a re-analysis of the deposited data

How the results depend on the processing

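The log2 difference of miR-503-5p between APAP and Control was 2.22 with library totals (where the median over all miRNAs went from -0.05 to 0.20) and 1.66 on log2(CPM + 1). In dmPGE2+APAP against Control it passed, so that 1 member was called, with library totals (1.97, adjusted p 0.0368), relative log expression factors (1.77, 0.0422), DESeq2 (1.78, 0.00962), limma on log2(CPM + 1) (1.50, 0.0375), and without APAP replicate 3 (1.79, 0.0382) or dmPGE2+APAP replicate 1 (1.97, 0.0380). In the other 11 of 17 alternatives it did not pass, and with libraries left out in turn it ranged from 1.62 to 1.97 and the count of members from 0 to 1. At a mean of at least 10 CPM it gave no value. Each setting in which miR-503-5p passed called 2 miRNAs in all in dmPGE2+APAP against Control. All of these fits held Control libraries that entered the choice of miR-503-5p, so the passes are not independent support. The log2(CPM + 1) setting was chosen after seeing the data, in place of limma on the deposited TPM, which was not run. In dmPGE2+APAP against APAP the leave-one-out values ran from -0.33 to 0.03. The ratio to the neighbours turned to 0.27 in that contrast with miR-322-5p alone.

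Values of uncalled members near 0 changed sign, none of them passing. miR-503-3p in dmPGE2+APAP against APAP gave -0.02 with the replicate block and -0.23 to 0.58 with libraries left out, and against Control -0.09 with no filter, -0.16 with the replicate block and -0.15 to 0.39. miR-322-3p against Control gave -0.08 with no filter, 0.00 with limma-voom and -0.15 to 0.21 with libraries left out. Leaving out libraries gave -0.57 to 0.06 for miR-542-3p against Control, and -1.68 to 0.10 against APAP and -1.77 to 0.02 against Control for miR-450b-5p.

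The replicate number as a block, over the 6 numbered libraries, gave miR-503-5p -0.24 against APAP (adjusted p 0.911) and 1.70 against Control (0.0768). Same-numbered libraries deviated with correlations of 0.17, -0.10 and 0.12, and differently numbered ones with -0.28 to 0.15. So few values cannot tell whether the numbers pair the samples. Depth limits the scarce strands most.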
